A study of Mus musculus with 12 samples.

Results

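Genes that move lipid into cells, out of cells or into droplets were followed through single cells of mouse paw epidermis: Apoe, Lpl, Cd36, Fabp4, Fabp5, Abca1, Abcg1, Plin2 and Trem2. They were chosen by gene symbol and make up 9 of the 32285 genes counted. No value of theirs enters that choice, but it was made with other results from the same libraries known.

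The libraries came from the glabrous skin of the hind paw of C57BL/6J wild-type mice, from which the epidermis was separated and dissociated for droplet-based 3′ single-cell RNA sequencing. There were 12 libraries in 4 groups of 3 mice. Males on regular diet (RD, 11% fat), males on high-fat diet (HFD, 42% fat), females on RD and females on HFD were each kept on their diet for 10 weeks from an age of 6 to 8 weeks, and were 16 to 18 weeks old when the tissue was taken. The diet serves as a model of painful diabetic neuropathy, and none of the 4 groups carries a transgene. Male and female libraries were counted with different software versions, so that sex and counting software cannot be told apart.

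Libraries held 134449247 to 194673581 unique molecular identifiers (UMIs, each standing for 1 captured RNA molecule), and any 2 of them shared 15 to 70 cell barcodes, at most 0.564% of the smaller library. Quality filters kept 62147 male and 64228 female cells of 140392 barcodes. Langerhans cells (LCs), the antigen-presenting cells of the epidermis, were taken as kept cells with at least 2 UMIs of Cd207 (langerin) and under 0.5% of UMIs from keratin genes. This gave 1026 male and 1790 female cells, between 117 and 397 per library. The 10 defining LC markers summed to 61878 to 75202 CPM (UMIs of a gene per 1000000 UMIs of the same cells) in these cells and to 88.4 to 156 CPM in keratinocytes. Both sets were made with LC markers, so that this contrast follows in part from the choice of cells and does not test it. All kept cells were also clustered per sex without the 9 genes, and clusters were named from stage markers as basal-like, proliferating-like, suprabasal- or spinous-like, terminally differentiated-like and migratory-like keratinocytes, called by those names below. Pooled keratinocytes are all kept cells outside the LC and T cell clusters, including 19.7% of male cells in 1 cluster and 20.6% and 1.24% of female cells in 2 clusters that met no stage name.

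Epidermis makes much of its own lipid, and its outer layers depend on that lipid for the water barrier. Fatty acids reach cells from lipoproteins after hydrolysis by lipoprotein lipase (Lpl), with help from the scavenger receptor Cd36. Inside, fatty acid binding proteins (Fabp4, Fabp5) carry them, perilipin 2 (Plin2) coats the droplets that store them, and the pumps Abca1 and Abcg1 export cholesterol to acceptors such as apolipoprotein E (Apoe). Trem2 is a lipid-sensing receptor of macrophages and microglia. Macrophages that take up lipid are known for raising several of these genes together, through nuclear receptors of the PPAR and LXR families that bind DNA at copies of a hexamer half-site.

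On GRCm38 with GENCODE vM21 all 9 genes are protein coding. Apoe lies at chr7:19696109-19699188, Lpl at chr8:68880491-68907448, Cd36 at chr5:17781690-17888801 and Fabp4 at chr3:10204088-10208576. Fabp5 lies on the same chromosome as Fabp4, at chr3:10012548-10016607. Abca1 (chr4:53030787-53159895) and Plin2 (chr4:86648386-86670060) share another, as do Abcg1 (chr17:31057675-31117988) and Trem2 (chr17:48346401-48354147). Within Abcg1 the annotation also places the small transcript Gm25447 on the same strand.

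The upstream sequences of Cd36 and Plin2 are printed because both genes had much of their RNA in a few barcodes (below). Lpl and Fabp4 were also uneven, and no window was at hand for them. Each run is the 250 bases before the annotated start from RefSeq GRCm38.p6, read 5′ to 3′ on the minus strand, where both genes lie. The Cd36 run, chr5:17835897-17836146, lies inside the GENCODE span of the gene, before a start downstream of the outermost one. The Plin2 run is chr4:86670060-86670309. Capitals mark the half-site of nuclear receptors, searched as AGGTCA on both strands and found here as TGACCT.

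Cd36: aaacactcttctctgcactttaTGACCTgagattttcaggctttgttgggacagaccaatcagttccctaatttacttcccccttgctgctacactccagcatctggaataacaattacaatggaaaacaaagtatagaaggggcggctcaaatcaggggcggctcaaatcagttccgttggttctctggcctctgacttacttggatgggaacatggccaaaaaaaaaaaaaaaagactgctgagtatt

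Plin2: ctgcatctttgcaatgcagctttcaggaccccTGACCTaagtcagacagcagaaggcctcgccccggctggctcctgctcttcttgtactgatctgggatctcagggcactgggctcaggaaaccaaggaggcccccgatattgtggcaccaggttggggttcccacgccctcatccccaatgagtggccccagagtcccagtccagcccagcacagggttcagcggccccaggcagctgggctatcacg

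Both windows held 1 copy, as did that of Trem2, while those of Abca1 and Apoe held none of these letters. Only these exact letters were searched, so that half-sites with other letters were not counted and may be present in any window. Of all 32851 windows of the same length 14.02% held at least 1 copy, so that a match is common and describes the sequence without placing a factor there. Windows of 5 of the 9 genes were at hand.

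In LCs 5 of the 9 genes were detected in every library, and 3 were at 0 in every library. Apoe, Fabp5, Abca1, Abcg1 and Plin2 made up the first group. Lpl, Fabp4 and Trem2 had 0 UMIs in all 12 LC sets. Among males 0 of 1026 cells allows a share of up to 0.292% of cells with a UMI, and among females 0 of 1790 allows up to 0.168%, by counting error alone. The median LC held 4115.5 UMIs in males and 6324.5 in females. Lipoprotein lipase and the adipocyte and macrophage binding protein Fabp4 were therefore not detectable in LCs at this depth.

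Cd36 was near the limit. Male LCs had 15 UMIs of Cd36 in 9 cells, which is 8.54, 5.77 and 0 CPM in the RD mice and 3.04, 0 and 1.43 CPM in the HFD mice. Male basal cells, a deeper class with a median of 7197 UMIs per cell, held a Cd36 UMI in 9 of 16766 cells, or 0.0537%, against 0.877% of male LCs. With each cell thinned to 2000 UMIs the shares were 0.00603% and 0.712%, leaving out 181 and 43 shallower cells. Female LCs had 1 UMI in 1790 cells. Diet groups overlapped, and the gene was too low for the test in LCs.

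Plin2 was higher in LCs than in pooled keratinocytes, though not than in migratory cells (below). Its LC level was 73.2, 65.7 and 94.1 CPM in male RD mice and 85.1, 72.5 and 96.9 CPM in male HFD mice. In females it was 60.9, 57.1 and 56.9 CPM on RD and 73.4, 45.2 and 58.7 CPM on HFD. These levels were 611% and 695% of the pooled keratinocyte level in male RD and HFD mice and 470% and 358% in females, as group means.

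Abcg1 was likewise higher in LCs than in pooled keratinocytes, at 682% and 621% of their level in male RD and HFD mice and 342% and 430% in females. Abca1, the other cholesterol pump, was closer to the keratinocyte level, at 273% and 216% in males and 121% and 118% in females. The male RD mice held 5 to 14 UMIs each and ranged from 149% to 502% (median 168%), so that 1 mouse raised their mean. In LCs Abca1 averaged 13.9 ± 4.01 CPM in males (SD, n = 6 mice) and 23.4 ± 2.60 CPM in females.

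Apoe and Fabp5 lay on the other side. Fabp5 in LCs was 264, 273 and 332 CPM in male RD mice and 229, 246 and 326 CPM in male HFD mice, which is 2.95% and 2.97% of the keratinocyte level. In females it was 111, 119 and 130 CPM on RD and 119, 97.7 and 117 CPM on HFD, or 1.91% and 2.03%. Free RNA from broken cells gives droplets a low share of abundant transcripts, so 8 abundant keratinocyte genes were read the same way. Summed, they reached 3.79% and 4.70% of their keratinocyte level in male LCs and 2.94% and 2.80% in female LCs, and single genes of that list ranged from 0.412% to 21.5%. Fabp5 in LCs was thus no higher than this keratinocyte background.

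Apoe in LCs was 4.30% and 4.11% of the keratinocyte level in male and female RD mice, near the summed background, and 8.73% and 6.02% in male and female HFD mice. In male RD mice the percentages were 4.10, 4.54 and 4.26 and in male HFD mice 6.92, 8.53 and 10.8. The background list in the same male HFD mice was 3.25%, 6.11% and 4.75%, against 3.77%, 3.85% and 3.74% on RD. Apoe thus lay above the summed list in each male mouse of both diets, and within the range of its single genes. In females 1 RD mouse had Apoe at 2.68%, below the lowest summed value of that group, 2.81%. The median and highest of the RD females were both 4.82%, above the highest summed value, 3.06%. HFD females had Apoe at 3.14% or more, against at most 3.08% for the summed list.

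**Figure D1:**
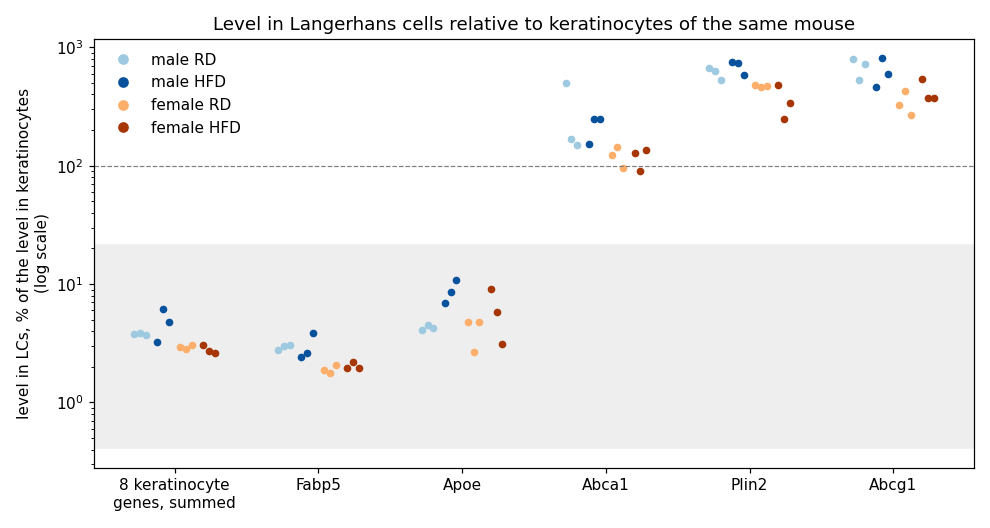
LC level as a percentage of the pooled keratinocyte level of the same mouse (log axis) for the genes detected in LCs, 1 point per mouse by sex and diet; the grey band is the range of 8 single keratinocyte reference genes, and the dashed line marks equal levels. Plin2 and Abcg1 lie above the line and Abca1 close to or above it, while Apoe and Fabp5 lie within the band of 0.412% to 21.5%.

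Among the named keratinocyte classes each gene had its own place, and the clusters without a stage name are left out of this description. Apoe was highest in migratory cells, which express Krt79 and whose place in the tissue was not measured. It was 5620 ± 575 CPM there in males and 2412 ± 367 CPM in females (SD, n = 6 mice, both diets). Basal cells followed at 2071 ± 229 and 1199 ± 101 CPM and proliferating cells at 1996 ± 254 and 1132 ± 100 CPM. These neighbours did not differ beyond the spread between mice, and the paired levels within each mouse were not compared. Apoe then fell with differentiation to 576 ± 49.1 and 490 ± 50.6 CPM in suprabasal cells and 249 ± 113 and 177 ± 67.0 CPM in terminally differentiated cells.

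Fabp5, the epidermal fatty acid binding protein, ran the other way. Suprabasal cells held 18553 ± 1347 CPM in males and 13605 ± 798 CPM in females, against 1116 ± 182 and 294 ± 26.1 CPM in basal cells. Of the other named classes, migratory (3475 ± 713 CPM), proliferating (3036 ± 695 CPM) and terminally differentiated cells (2848 ± 631 CPM) lay between in males with overlapping ranges. Pooled keratinocytes, which include the clusters without a stage name, averaged 9459 CPM in males. In females the same classes held 2867 ± 788, 1496 ± 403 and 1339 ± 519 CPM, also with overlapping ranges.

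The cholesterol pumps were arranged in different orders. Abca1 followed Apoe, with 25.7 ± 3.22 CPM in male and 45.7 ± 6.06 CPM in female migratory cells, 13.7 ± 3.06 and 29.0 ± 5.64 CPM in basal cells, and 1.37 ± 1.02 and 2.29 ± 0.778 CPM in terminally differentiated cells. Abcg1 was highest in terminally differentiated cells, at 21.1 ± 4.88 CPM in males and 50.4 ± 11.2 CPM in females, and its range overlapped that of LCs (26.2 ± 7.71 and 38.9 ± 11.97 CPM). Suprabasal cells held the lowest Abcg1 of the 5 classes, 1.54 ± 0.514 and 5.19 ± 1.08 CPM. Basal and proliferating cells did not differ beyond the spread between mice for Abcg1 in either sex, and were not compared within mice.

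Plin2, Lpl and Cd36 were highest in migratory cells. Plin2 reached 117 ± 38.6 CPM there in males and 73.3 ± 26.9 CPM in females, against 17.3 ± 2.63 and 20.5 ± 4.86 CPM in basal cells and under 4 CPM on average in suprabasal and terminally differentiated cells. Lpl was 8.51 ± 4.34 and 4.99 ± 2.24 CPM in migratory cells and at most 0.521 CPM on average in the other 4 keratinocyte classes. Cd36 was 4.65 ± 4.44 and 2.75 ± 2.36 CPM in migratory cells and at most 0.117 CPM in the other 4 keratinocyte classes, against 3.13 CPM in male LCs. The spread between mice was close to the mean for Cd36, and summed sebocyte-list genes (below) ranged from 63.0 to 257 CPM in male and from 19.2 to 153 CPM in female migratory cells. Of 98 kept barcodes with at least 3 of those genes, 92 lay in the migratory clusters. Migratory levels without them were not computed.

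**Figure D2:**
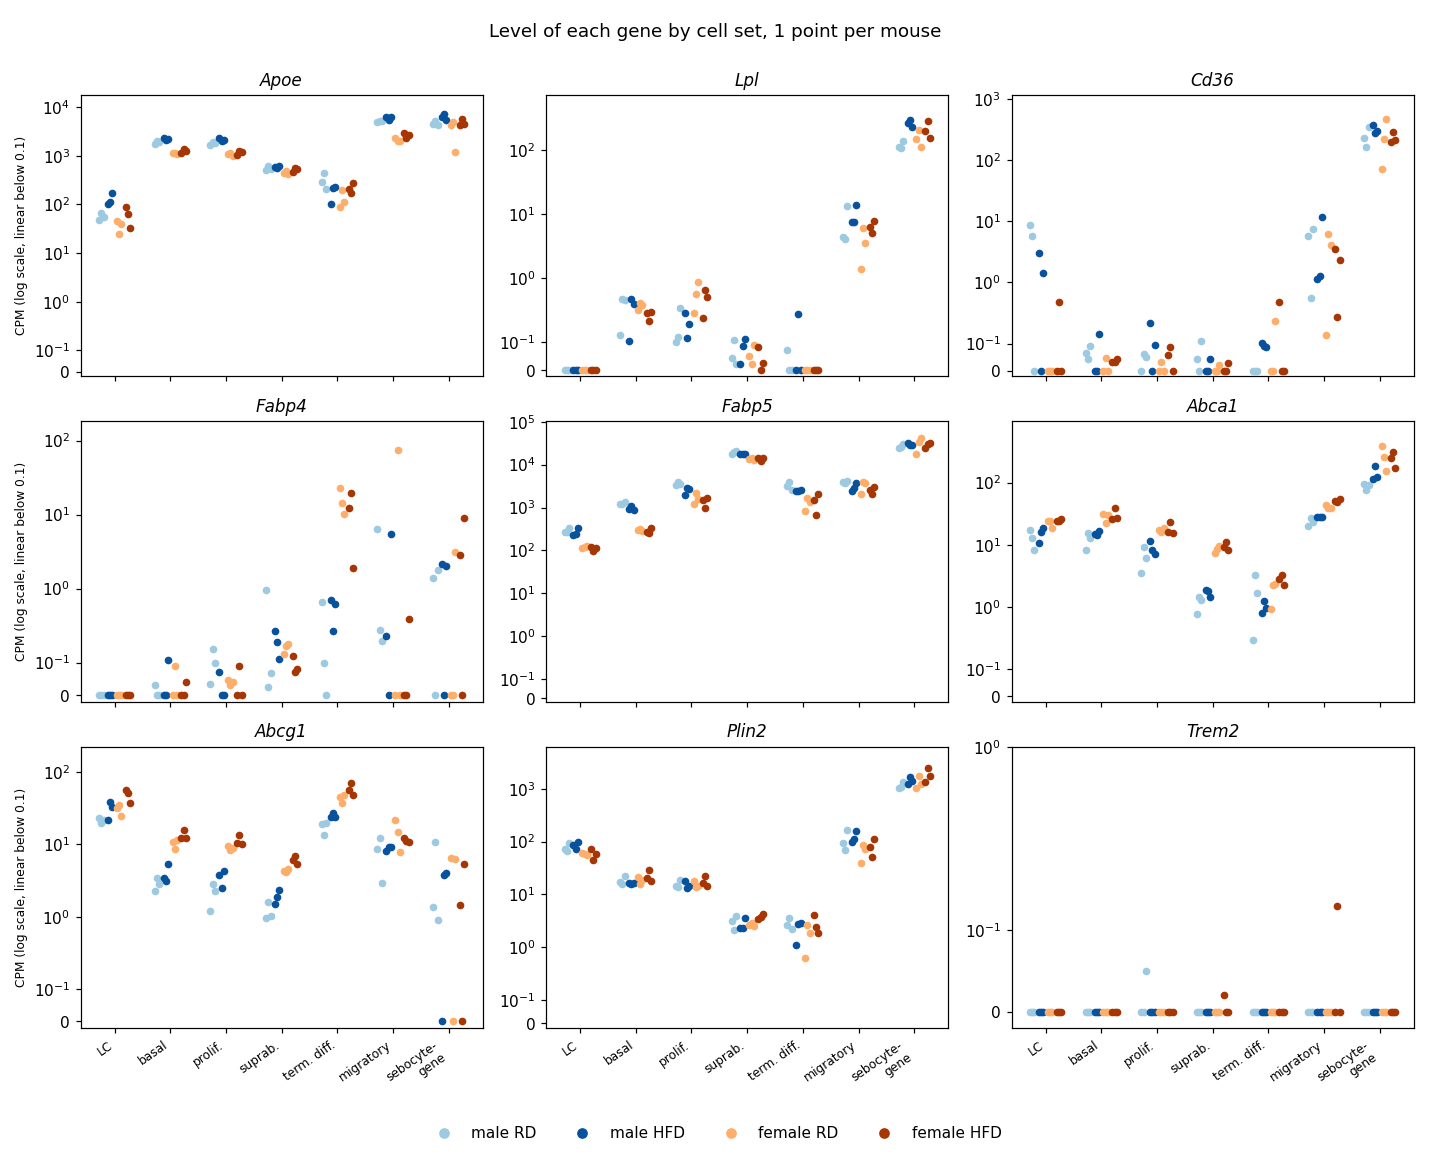
Level in CPM (log axis, linear below 0.1) of each of the 9 genes in LCs, the 5 keratinocyte classes and the barcodes with sebocyte-list genes, 1 point per mouse by sex and diet. Among the 5 keratinocyte classes Apoe and Abca1 are highest in migratory cells, Fabp5 in suprabasal cells and Abcg1 in terminally differentiated cells. Cd36, Lpl, Plin2, Abca1 and Fabp5 are highest of all in the barcodes with sebocyte-list genes.

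Cd36, Lpl and Plin2 were concentrated in very few barcodes. Barcodes were picked that held at least 3 of 6 genes listed for sebocytes, the lipid-secreting cells of sebaceous glands (Mc5r, Awat1, Awat2, Elovl3, Cidea and Far2); this list has no member of the 9 and was chosen after values had been seen. There were 342 of them among 140392 barcodes (0.244%, 8 to 63 per library, 223 male and 119 female). They held 2102 of 2235 Cd36 UMIs (94.0%, between 83.1% and 98.3% per library) and 1415 of 2059 Lpl UMIs (68.7%, between 34.3% and 83.1%). They also held 10236 of 33311 Plin2 UMIs (30.7%, between 8.23% and 50.3%). Shares of the other members were smaller. These barcodes, 0.244% of all, held 4.49% of Abca1, 1.74% of Apoe, 1.67% of Fabp5, 1.38% of Fabp4 and 0.156% of Abcg1 UMIs. They were also deeper than other barcodes (below).

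Levels within these barcodes were high for most members. Cd36 was 235, 161 and 353 CPM in male RD mice, 369, 276 and 306 CPM in male HFD mice, 71.4, 219 and 467 CPM in female RD mice and 201, 289 and 217 CPM in female HFD mice. Lpl was 113, 108 and 138 CPM in male RD mice and 267, 291 and 227 CPM in male HFD mice, without overlap, and 149, 206 and 110 CPM against 202, 285 and 155 CPM in females, with overlap. Among these male barcodes Abca1 was 93.4, 75.4 and 91.2 CPM on RD and 116, 186 and 125 CPM on HFD, and Apoe 4460, 5150 and 4354 CPM on RD and 6387, 7188 and 5561 CPM on HFD, both also without overlap. In the female barcodes both overlapped, with Abca1 at 396, 259 and 151 CPM on RD and 252, 316 and 172 CPM on HFD, and Apoe at 4406, 5088 and 1202 CPM on RD and 4328, 5716 and 4520 CPM on HFD. Of the 6410 genes with at least 10 UMIs in at least 3 of the male sets, 9.13% had every HFD mouse above every RD mouse. The male values rest on 18 to 63 barcodes per male library, were singled out after they had been seen and were not tested. Plin2 averaged 1295 ± 227 CPM in males and 1608 ± 529 CPM in females, and Fabp5 28684 and 30121 CPM, above the suprabasal class. Abcg1 stayed low, at 3.46 and 3.26 CPM.

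Most of these barcodes fell to the quality filter. Of the 342, 229 were over the mitochondrial maximum of 5%, 13 over the gene maximum and 2 under the gene minimum, so that 71.3% were removed against 9.83% of other barcodes. Their median mitochondrial share was 6.14% against 2.68%, and their median depth 19296 against 10227 UMIs. The filter therefore passed 17.9% of Cd36 UMIs, 37.7% of Lpl UMIs and 67.6% of Plin2 UMIs. Of the 98 kept, 92 lay in the migratory clusters. Where a single sebocyte-list gene was required, 3887 barcodes held 94.4% of Cd36, 77.8% of Lpl and 39.1% of Plin2 UMIs, and where all 6 were required, 101 barcodes held 44.0%, 17.8% and 11.2%.

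**Figure D3:**
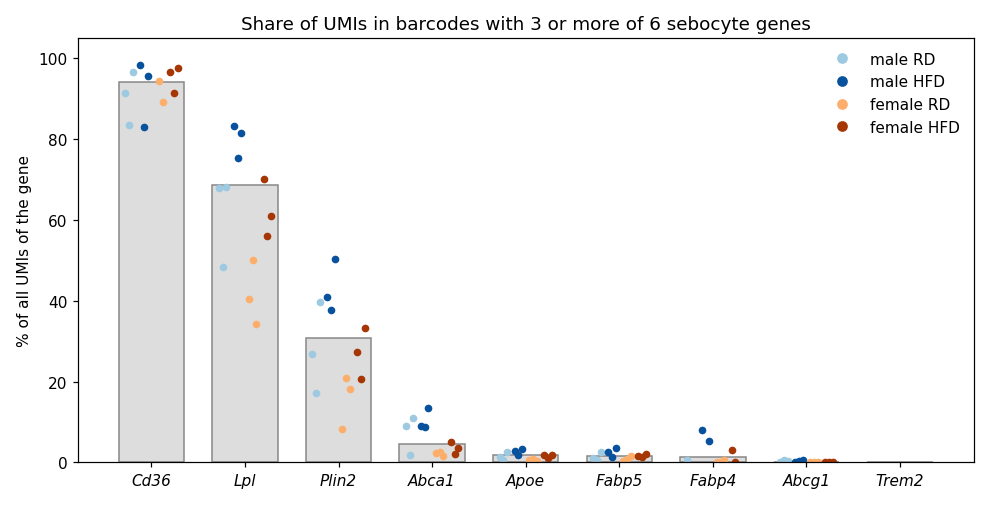
Percentage of each gene's UMIs held by the 342 barcodes with at least 3 of 6 sebocyte-list genes; bars pool all 12 libraries and points are single libraries with at least 20 UMIs of the gene. The bars stand at 94.0% for Cd36, 68.7% for Lpl and 30.7% for Plin2 and under 5% for the other members.

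Fabp4 was carried by still fewer cells. Its 1159 UMIs lay in 179 barcodes, and 460 of them (39.7%) were in 1 migratory-cluster cell of the second female RD mouse, which also held 302 UMIs of Krt28 and 220 of Krt72, keratins of the hair follicle inner root sheath. In the first male RD mouse, barcodes with 37 and 28 Fabp4 UMIs held 180 and 142 UMIs of Krt25, another keratin of that sheath. A suprabasal cell with 53 Fabp4 UMIs of the same mouse and a migratory-cluster cell with 37 of the third male HFD mouse held none of these 3 keratins. Barcodes with 29 and 26 Fabp4 UMIs of the third female RD mouse, both over the gene maximum, held 104745 and 86641 UMIs in all. Of Pecam1, a gene of blood vessel lining, they held 2 and 3 UMIs, and of Cdh5, another such gene, 2 and 0. In females Fabp4 was also found in terminally differentiated cells, at 13.5 ± 7.34 CPM (SD, n = 6 mice, range 1.87 to 22.6). Males held 0.391 CPM there, counted with another software version. Only 34 of 1286 such female cells held a Fabp4 UMI, so that the female mean rests on few cells. Single ones with 52, 43, 24, 41 and 42 Fabp4 UMIs, each of another library, held between 900 and 1806 UMIs of Lce1b, a cornified envelope gene. In those libraries the whole class held 74, 45, 45, 52 and 49 Fabp4 UMIs.

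Trem2 was almost absent, with 25 UMIs in 12 barcodes over all libraries. Of these, 22 UMIs lay in 9 barcodes without Cd207 that held at least 2 of 11 macrophage-list genes, which include C1qa, Lyz2 and Mrc1. The second male HFD mouse gave 16 UMIs and the third female RD mouse 6, and 7 libraries had none. Of 16 such macrophage-gene barcodes within the LC clusters, 9 came from that male HFD mouse. No diet difference can be read from 5 libraries with a Trem2 UMI.

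The T cell clusters, singled out after their values were seen, held Fabp5 at 4279, 3680 and 2050 CPM in male RD mice and 714, 633 and 683 CPM in male HFD mice, without overlap and untested. Of the 1550 genes with at least 10 UMIs in at least 3 of these male sets, 7.61% had every HFD mouse below every RD mouse. The 8 keratinocyte reference genes in the same clusters were 10248 to 20708 CPM on RD and 5398 to 8238 CPM on HFD, and their part in the difference was not tested. In female T cell clusters Fabp5 overlapped between diets.

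Both cholesterol pumps were higher in female keratinocytes. Abca1 averaged 6.24 CPM in males and 19.97 CPM in females, 3.20-fold higher in females, and Abcg1 4.09 and 10.0 CPM, 2.46-fold higher. Fabp5 ran the other way at 9459 and 5903 CPM, 1.60-fold higher in males, as did Apoe at 1394 and 970 CPM, 1.44-fold higher. In LC droplets, where Fabp5 was no higher than the keratinocyte background, the value was 2.41-fold higher in males, and it cannot be told apart from free keratinocyte RNA. These folds carry the difference in counting software with them.

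HFD was compared with RD per mouse by edgeR's quasi-likelihood test on UMIs summed over each cell set, with Benjamini-Hochberg adjustment over all genes tested. The 14 comparisons (LCs, pooled keratinocytes and 5 classes, within each sex) held 1 call among the members, Plin2 in female keratinocytes. In the background of all genes, the test called 0.017% of 5878 genes in male LCs and 0.654% of 9177 in female LCs. It called 3.41% of 17717 genes in female keratinocytes, and 0.902%, 1.91%, 4.47%, 0% and 0.303% in female basal, proliferating, suprabasal, terminally differentiated and migratory cells. In male keratinocytes it called 0% of 15051 genes, where 1369 passed 0.05 before adjustment and DESeq2 gave 203 calls, and 0% in each of the 5 male classes. At an unadjusted p under 0.05 the male basal, proliferating, suprabasal, terminally differentiated and migratory cells held 911, 1193, 1138, 2637 and 628 genes, and female terminally differentiated cells 622.

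Plin2 in pooled female keratinocytes was 12.6, 12.4 and 12.1 CPM on RD and 15.1, 18.4 and 17.2 CPM on HFD. Every HFD mouse was above every RD mouse, and the log2 fold change was 0.38 (SE 0.07, adjusted p = 0.0315 by edgeR). Without cells holding at least 2 sebocyte-list genes the log2 fold change was 0.35 with adjusted p = 0.101 by edgeR. The gene was called in 7 of 13 alternatives. Leaving out any of the 3 RD mice or the third HFD mouse also ended the call, with adjusted p between 0.0918 and 0.140 by edgeR. Summed sebocyte-list genes in these cells ranged from 3.06 to 9.56 CPM on RD and from 4.22 to 8.90 CPM on HFD, which overlap. The 6 basal markers moved with diet in the same cells, from 7398 to 8304 CPM on RD and from 8913 to 9533 CPM on HFD, and basal cells hold more Plin2 than suprabasal ones, so that a change in the mix of stages was not tested apart. Within suprabasal cells Plin2 was 2.66, 2.91 and 2.501 CPM on RD and 3.36, 3.77 and 4.19 CPM on HFD, without overlap (log2 fold change 0.45, SE 0.14, edgeR adjusted p = 0.0858). Within basal cells the female groups overlapped (0.28, SE 0.17, edgeR adjusted p = 0.489). In male keratinocytes the groups overlapped too, at 11.0, 10.3 and 17.8 CPM on RD and 11.2, 9.79 and 16.5 CPM on HFD.

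Apoe in male LCs had the largest log2 fold change among the members tested in LCs. It was 47.6, 66.9 and 56.2 CPM on RD and 102, 113 and 174 CPM on HFD, so that every HFD mouse was above every RD mouse. The log2 fold change was 1.17 (SE 0.21), which did not pass the adjustment (edgeR adjusted p = 0.0924). The call depended on the setting: DESeq2 gave 1.15 with adjusted p = 0.00909 and removal of likely doublets 1.02 with adjusted p = 0.0457 by edgeR, while all cells of the LC clusters gave 0.26 with adjusted p = 0.920 by edgeR. Over 16 alternatives Apoe was called in 4, with log2 fold changes between 0.26 and 1.31. In female LCs Apoe was 44.8, 24.8 and 39.7 CPM on RD and 87.7, 65.0 and 33.3 CPM on HFD, with overlap (0.74, SE 0.28, edgeR adjusted p = 0.294, or 0.00011 without the low-count filter). Without that filter the calls over all genes rose there too (below).

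Other genes were read in the same male LCs. Summed macrophage-list genes, 11 genes of which Cd163, Fcgr1 and Ly6c2 were at 0, were 666 to 857 CPM in male RD LCs and 817 to 1093 CPM in male HFD LCs. The 8 keratinocyte reference genes were 1181 to 1218 CPM on RD and 1027 to 1842 CPM on HFD. In the third male HFD mouse the cycling LCs held 39 of the Apoe UMIs (433 CPM), and without cycling cells Apoe was 46.4, 68.8 and 58.4 CPM on RD and 98.9, 117 and 136 CPM on HFD, still without overlap. Both lists overlapped between the diets, and their parts in the Apoe difference were not tested.

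Abcg1 was above 0 on the log2 scale in 13 of the 14 comparisons, with no call. In female LCs it was 31.2, 34.6 and 24.3 CPM on RD and 56.1, 50.05 and 37.2 CPM on HFD, without overlap (0.70, SE 0.18, edgeR adjusted p = 0.114). In male LCs it was 23.2, 19.6 and 21.5 CPM on RD and 21.3, 38.6 and 32.8 CPM on HFD, with overlap. Male keratinocytes held 2.93, 3.71 and 2.96 CPM on RD and 4.64, 4.78 and 5.50 CPM on HFD, without overlap (0.70, SE 0.12, edgeR adjusted p = 0.137, DESeq2 adjusted p = 8.04e-05). The 7 terminally differentiated markers moved with diet in the same male cells, from 7170 to 8551 CPM on RD and from 10803 to 13139 CPM on HFD, and their part in the difference was not tested. Within male basal, proliferating and suprabasal cells the log2 fold changes were 0.56, 0.75 and 0.74 with overlapping mice. Female keratinocytes held 9.58, 8.03 and 8.98 CPM on RD and 10.4, 13.3 and 9.90 CPM on HFD (0.28, SE 0.10, edgeR adjusted p = 0.173).

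Female suprabasal cells came nearest to a call, at 4.23, 4.17 and 4.53 CPM on RD and 6.14, 6.78 and 5.28 CPM on HFD (0.45, SE 0.12, edgeR adjusted p = 0.0580). The class with the most Abcg1 had log2 fold changes of the same sign. Terminally differentiated male cells held 18.9, 13.3 and 19.7 CPM on RD and 23.5, 27.2 and 23.9 CPM on HFD (0.74, SE 0.22, edgeR adjusted p = 0.0851). In females these cells held 45.0, 36.5 and 47.4 CPM on RD and 56.1, 69.4 and 48.2 CPM on HFD, again without overlap (0.22, SE 0.27, edgeR adjusted p = 0.801). Migratory female cells were the exception, at 21.6, 14.8 and 7.75 CPM on RD and 12.3, 11.1 and 10.6 CPM on HFD (−0.41, SE 0.28, edgeR adjusted p = 0.541). Without the low-count filter edgeR called Abcg1 in female LCs (adjusted p = 0.00224), male keratinocytes (0.0189) and male proliferating cells (0.0424). With that setting edgeR also called it in male terminally differentiated (adjusted p = 0.00183) and female suprabasal cells (0.0403). Leaving the filter out raised the number of calls over all genes in each of these sets (below), and shares of all genes are not given for it. The comparisons share mice and cells within a sex, so that they do not count as 14 separate observations.

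**Figure D4:**
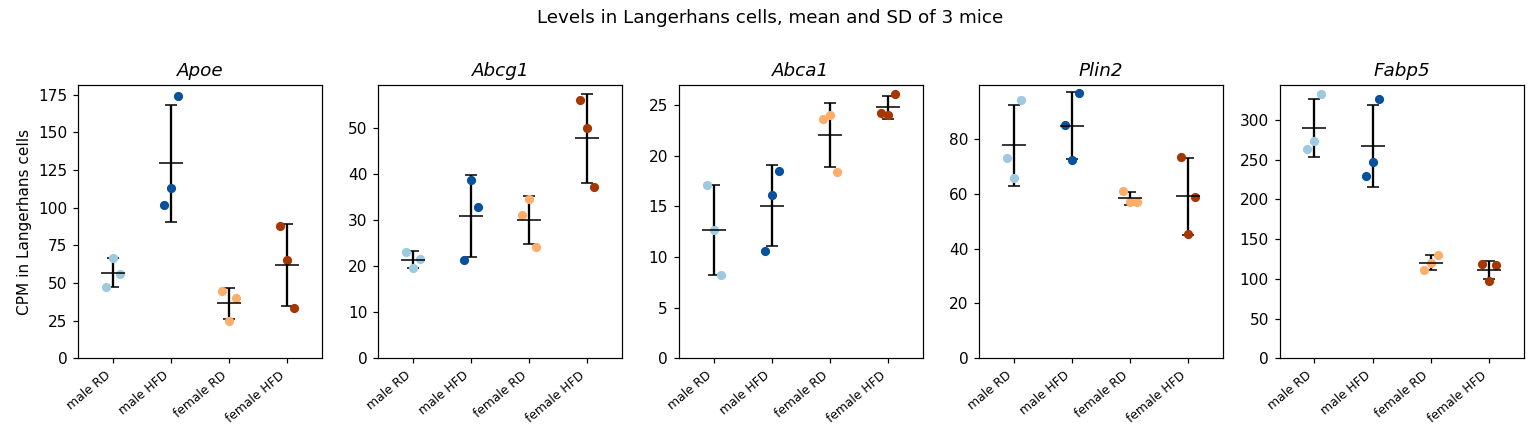
LC level in CPM of the 5 genes detected in LCs of every library, by sex and diet; points are mice and bars give the mean with the SD of 3 mice. Male HFD mice lie between 102 and 174 CPM for Apoe, above the RD mice at 47.6 to 66.9, and female HFD mice lie between 37.2 and 56.1 CPM for Abcg1, above the RD mice at 24.3 to 34.6.

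Fabp5 was the member whose fitted log2 fold change was below 0 in all 14 comparisons, with no call. These comparisons, also for the members below, share mice and cells within a sex. The share of all genes with such uniform signs is not given. In LCs Fabp5 was no higher than the keratinocyte background. In terminally differentiated female cells the log2 fold change of Fabp5 was −0.05 (SE 0.31), while the mean level was 1265 CPM on RD and 1412 CPM on HFD. In male basal cells it was 1217, 1229 and 1352 CPM on RD and 928, 1078 and 891 CPM on HFD, without overlap (−0.33, SE 0.09, edgeR adjusted p = 0.447). In male proliferating cells it was 3284, 3871 and 3566 CPM on RD and 1918, 2834 and 2743 CPM on HFD, without overlap (−0.52, SE 0.14, edgeR adjusted p = 0.296). Without the low-count filter edgeR called both, with adjusted p = 0.0242 in basal and 0.000199 in proliferating cells. Calls over all genes rose in both classes under that setting (below). Pooled keratinocytes overlapped in both sexes.

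Apoe was above 0 on the log2 scale in 13 of 14 comparisons, the exception being −0.54 in terminally differentiated male cells. Male basal cells held 1719, 2038 and 1927 CPM on RD and 2346, 2132 and 2265 CPM on HFD, without overlap. Male proliferating cells held 1678, 1892 and 1820 CPM on RD and 2387, 2041 and 2156 CPM on HFD, also without overlap, and neither difference was called. Without the low-count filter the basal one was (edgeR adjusted p = 0.0396), where calls over all genes rose too (below). Pooled female keratinocytes held 930, 927 and 824 CPM on RD and 961, 1119 and 1060 CPM on HFD (0.17, SE 0.08, edgeR adjusted p = 0.261).

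The remaining members gave no separation in pooled keratinocytes. Abca1 was above 0 in 12 of 13 comparisons, and in female migratory cells it was 43.8, 38.8 and 39.5 CPM on RD and 49.8, 48.3 and 54.2 CPM on HFD, without overlap (0.29, SE 0.08, edgeR adjusted p = 0.157). Fabp4 in female keratinocytes had the lowest log2 fold change of any member, −2.50 (SE 0.83, edgeR adjusted p = 0.129), with 0.699, 4.03 and 0.422 CPM on RD and 0.384, 0.446 and 0.124 CPM on HFD. The second RD mouse holds the cell with 460 UMIs, and without cells of at least 20 Fabp4 UMIs the value was −0.83 (edgeR adjusted p = 0.235). Lpl in male keratinocytes was 0.225, 0.280 and 0.775 CPM on RD and 0.373, 0.392 and 0.873 CPM on HFD, with overlap.

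Counts of separated groups can be read against all genes. In male LCs 1 of 5 tested members (Apoe) had every HFD mouse above every RD mouse, where 7.09% of all genes did and 5.80% had every HFD mouse below. In female LCs it was 2 of 5 (Abca1 and Abcg1), against 9.86% above and 7.88% below over all genes. Abca1 had 47, 32 and 44 UMIs in these RD mice and 59, 50 and 40 in the HFD mice. Its CPM in the second RD and second HFD mice were nearly tied, so that its separation is marginal. Male keratinocytes had 1 of 8 (Abcg1) above, with 4.28% above and 12.2% below over all genes. Female keratinocytes had 3 of 8 (Plin2, Apoe and Abcg1) above, with 19.1% above and 8.09% below. No member had every HFD mouse below in these 4 sets. Within male classes every HFD mouse was above for Apoe in basal and proliferating cells, where 2.56% and 7.02% of all genes did so, for Abcg1 in terminally differentiated cells, with 5.04%, and for Apoe and Abca1 in migratory cells, with 3.95%. For Fabp5 every HFD mouse was below in male basal and proliferating cells, as for 11.9% and 8.31% of all genes. Within female classes the gene was Abcg1 in basal, proliferating and terminally differentiated cells, with 10.8%, 14.7% and 7.73% of all genes above, Plin2 and Abcg1 in suprabasal cells, with 18%, and Abca1 in migratory cells, with 11.3%.

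By edgeR's interaction test of diet and sex, none of the 5 members tested in LCs and none of the 8 tested in keratinocytes was called, and Trem2 was tested in neither. Over all genes 0% of 8406 were called in LCs, with 593 at an unadjusted p under 0.05 and none by DESeq2, and 1.55% of 17991 in keratinocytes. The value for Abcg1 in keratinocytes was 0.41 (male minus female log2 fold change, SE 0.16, edgeR adjusted p = 0.217).

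**Figure D5:**
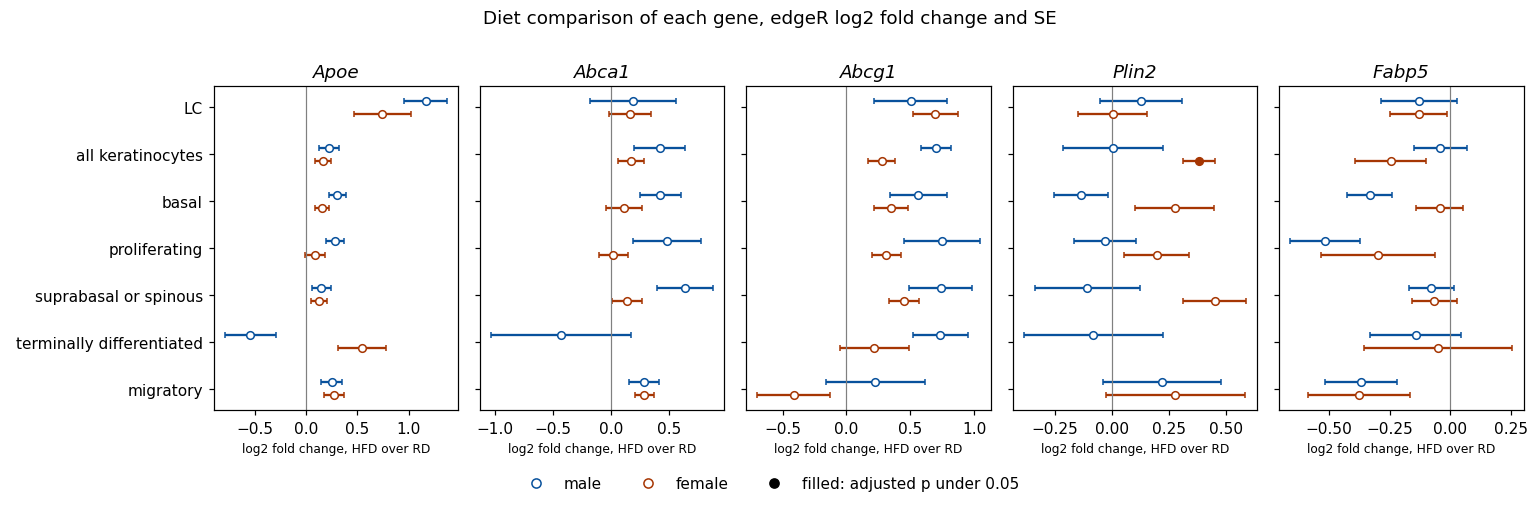
Log2 fold change of HFD over RD with its SE for 5 members in 7 cell sets of each sex, from edgeR on summed UMIs of 3 mice per group; filled points passed an adjusted p of 0.05. Plin2 in all female keratinocytes (0.38) is the filled point, Abcg1 lies above 0 in 13 of 14 sets and Fabp5 below 0 in all 14.

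Among LCs, neither the Ccr7-expressing cells, which are on their way to lymph nodes, nor cycling cells differed from other LCs of the same mouse in a called member. For Apoe in cycling LCs the log2 fold change was −0.23 over all mice and 1.04 in males alone (edgeR adjusted p = 0.0341), a fit of 2 mice that went opposite ways. The second RD mouse held 37.6 CPM in cycling and 68.8 CPM in other LCs, and the third HFD mouse 433 and 136 CPM, so that the value in males rests on 1 mouse. The Ccr7 comparison rests on 4 mice, all female, and called 4.73% of 8561 genes, and the cycling comparison on 5 mice and called 6.95% of 6637 genes.

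Other lipid genes were read in 7 lists with 90 genes in all. In male LCs 0 of 45 tested genes were called by edgeR, 5 passed 0.05 before adjustment and DESeq2 gave 1 call, with list medians between −0.32 and 0.11 against 0.00 over all genes. Of all genes there, 433 of 5878 passed 0.05 before adjustment. In male keratinocytes 0 of 73 list genes were called by edgeR, 8 passed 0.05 before adjustment and DESeq2 gave 0 calls, with medians between −0.13 and 0.10 against −0.01. Of all genes there, 1369 of 15051 passed 0.05 before adjustment. In female LCs 1 of 6 tested genes of fatty acid transport and activation rose, Acsl5, an enzyme that joins fatty acids to coenzyme A. It was 123, 97.7 and 101 CPM on RD and 160, 159 and 169 CPM on HFD (log2 fold change 0.58, SE 0.12, edgeR adjusted p = 0.0490), and the median of that list was 0.19 against 0.00 over all genes. The other 6 lists held no call by edgeR in female LCs, with medians between −0.08 and 0.17. Over all lists there, 10 of 55 tested genes passed 0.05 before adjustment and DESeq2 gave 2 calls. Of all genes in female LCs, 1122 of 9177 passed 0.05 before adjustment and edgeR called 60.

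In female keratinocytes 3 lists held calls, in cells whose basal markers moved with diet as given for Plin2. Slc27a3, a fatty acid transport and activation protein, rose from 16.3, 14.5 and 15.2 CPM on RD to 35.4, 32.6 and 35.7 CPM on HFD (log2 fold change 1.12, SE 0.08, edgeR adjusted p = 0.00286), as 1 of 10 tested genes of its list with a list median of −0.06. It was also called within female basal (0.90), proliferating (1.00), suprabasal (1.67) and migratory cells (1.02), with edgeR adjusted p between 0.0113 and 0.0369. Of 15 tested genes of droplet and triglyceride storage 2 fell, Gpam, which starts glycerolipid synthesis, by 0.50 (edgeR adjusted p = 0.0213), and Fitm2, which aids droplet budding, by 0.38 (edgeR adjusted p = 0.0407). Of 9 tested genes of lipolysis and lysosomal lipid handling, the lysosomal acid lipase Lipa rose by 0.65 (edgeR adjusted p = 0.0407). The lysosomal cholesterol exporter Npc1 fell by 0.43 (edgeR adjusted p = 0.0306) and the droplet lipase Pnpla2 by 0.34 (edgeR adjusted p = 0.0301). Within single classes Gpam was called in proliferating, Fitm2 in suprabasal and Npc1 in suprabasal and migratory cells, and Lipa and Pnpla2 in none by edgeR. In suprabasal cells edgeR also called 1 other storage gene, which rose, and 1 gene of the receptor list, which fell. The medians of the storage and lipolysis lists were −0.00 and −0.13. In the pooled cells the receptor, apolipoprotein, cholesterol efflux and Trem2-signalling lists held no call by edgeR, with medians between −0.17 and 0.02 against 0.01 over all genes. DESeq2 called 2 genes of the apolipoprotein list and 1 of the efflux list. Over all lists in these cells edgeR called 6 of 77 tested genes, 22 passed 0.05 before adjustment and DESeq2 gave 9 calls. Over all genes in these cells edgeR called 605 of 17717, and 3852 passed 0.05 before adjustment. The number called by DESeq2 over all genes is given below.

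For each member the genes with the most similar pattern were sought over 14 points, 7 cell classes in each sex, among 11030 genes. The points share libraries, and the Pearson correlations of mean log2(CPM + 1) are descriptions. Fabp5 was nearest to Acer1 (0.99), Krt10 (0.98) and Endou (0.97), Apoe to Tnk1 (0.98), Ltbp3 (0.98) and Cwh43 (0.97), and Lpl to Gata6 (0.98), Aspn (0.97) and Rnase12 (0.97). Cd36 was nearest to Cryab (0.85), Fa2h (0.85) and Rnase12 (0.84), and Plin2 to Ctsb (0.95), Mgll (0.94) and Gm26802 (0.92). Abca1 was nearest to Lpgat1 (0.96), Tnrc6c (0.95) and Aco1 (0.95), and Abcg1 to Snx9, Susd6 and Dennd1b (each 0.94). Fabp4 was nearest to Chil1 (0.94), Gm28856 (0.88) and Krtap13-1 (0.87), and rests on few cells. Trem2 was nearest to Chrm3 (0.89), Plcb1 (0.82) and Fut9 (0.80), a pattern set by 3 keratinocyte UMIs.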

How the data were processed

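Single-cell UMI counts per gene and barcode were deposited by the authors for 12 libraries (10x 3′ chemistry, mm10). Per the file headers male libraries were counted with Cell Ranger 6.1.0 and female ones with 7.2.0; the submitters' processing notes name Cell Ranger 7.2.0 and Seurat 5.0.0. No ambient RNA removal is stated in the sources used here. Kept barcodes had 200 (male) or 500 (female) to 6000 genes and a mitochondrial share of UMIs no higher than 5%. Cells were clustered per sex (2000 variable genes without the 9 members, 10 components, 20 neighbours, leidenalg 0.10.2, seed 1, lowest resolution with at least 10 clusters) and named with at least 3 markers; no doublets were removed in the main analysis. UMIs were summed per mouse and cell set, given as CPM, and tested with edgeR 4.0.16 (glmQLFit, TMM, filterByExpr, Benjamini-Hochberg, threshold 0.05) in R 4.3.3, after a test on simulated data. SE is the log2 fold change over the square root of F. Alternatives were DESeq2 1.42.0, RLE scaling, no filter, a replicate block, each mouse left out, other LC gates, a 10% mitochondrial maximum and doublet removal; sets without sebocyte-list or Fabp4-rich cells were added after seeing the data. Replicate numbers did not pair samples: deviations of same-numbered mice correlated between −0.348 and 0.142. Members and lists were chosen with earlier results of these data known. Named genes outside the members are called genes of the 7 lists in LC or pooled keratinocyte comparisons, at most 3 per list and direction, the 3 nearest genes of each member and checked markers. CPM of 3′ UMIs are compared within a gene.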

Additional observations from a re-analysis of the deposited data

Results flagged for a closer look

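In keratinocytes 5 of 78 tested genes of the lipid lists, none of them a member, had diet effects that differed between males and females by edgeR's interaction test (male minus female log2 fold change, adjusted over 17991 genes, 3 mice per group), where 1.55% of all genes were called. Slc27a3 differed by −1.54 (SE 0.14, adjusted p = 0.000551): females rose from 16.3, 14.5 and 15.2 CPM to 35.4, 32.6 and 35.7 CPM, while males were at 12.2, 15.2 and 17.1 CPM on RD and 11.3, 9.57 and 11.1 CPM on HFD. It was called in all 16 alternatives run. Gpam differed by 0.63 (SE 0.10, adjusted p = 0.0167), called in 11 of 16. Npc1 differed by 0.52 (SE 0.12, adjusted p = 0.0452), called in 6. Fitm2 differed by 0.47 (SE 0.11, adjusted p = 0.0468) and Lipa by −0.97 (SE 0.21, adjusted p = 0.0429), each called in 5. Sex and counting software cannot be told apart in this test. Groups held 3 mice, so that no single sample was tested for standing apart.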

How the results depend on the processing

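Numbers of genes called (edgeR unless named) moved as follows. Male LCs, 1 gene: 96 without the low-count filter, 12 by DESeq2, 6 with keratins under 0.25%, 0 over the LC clusters, 4 without doublets and 1 to 10 with 1 mouse left out. Female LCs, 60: 372 without the filter, 110 by DESeq2, 16 with keratins under 1%, 14 with Cd207 of at least 1 UMI, 7 over the LC clusters and 0 to 82 with 1 mouse left out. Without the filter, male keratinocytes gave 86 genes and male basal, proliferating, suprabasal, terminally differentiated and migratory cells 226, 330, 202, 1261 and 130, all from 0. Female basal, proliferating, suprabasal, terminally differentiated and migratory cells went from 129, 272, 616, 0 and 38 to 383, 869, 1226, 109 and 431, the LC interaction from 0 to 77 and cycling LCs from 461 to 722. DESeq2 called 203 genes in male and 1444 (from 605) in female keratinocytes and 995 (from 279) in the keratinocyte interaction. Cycling LCs gave 705 with a lower UMI minimum and 149 in females alone. The Ccr7 comparison in males alone could not be fitted. With 1 mouse left out the range was 0 to 1 in male keratinocytes, 0 to 93, 0 to 15, 0 to 39, 0 to 1082 (without the third RD mouse) and 0 to 0 in the male classes in the same order, and 2 to 928 (without the second HFD mouse) in female keratinocytes. In the female classes it was 0 to 492, 1 to 609, 5 to 937, 0 to 15 and 1 to 21. It was 0 to 0 in the LC interaction, 19 to 530 in the keratinocyte interaction, 166 to 323 (from 405) in Ccr7+ and 289 to 608 in cycling LCs. The causes were not tested.

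With the replicate number as a block, which does not pair mice here, male keratinocytes gave 1 gene, male basal 32, terminally differentiated 288 and migratory 4. Female keratinocytes gave 5, basal 8, proliferating 6, suprabasal 328, migratory 22 and the keratinocyte interaction 180. Plin2 in female keratinocytes had adjusted p = 0.0972 with the block.

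Over the log2 fold changes followed through each alternative, 142 values kept direction and side of the threshold, 10 passed it newly, 43 fell short of it and none changed sign. Among member values outside these, Apoe in cycling LCs went from −0.23 to 1.04 in males alone, a fit of 2 mice that differed in direction. Without the low-count filter edgeR also called Fabp5 in male basal and proliferating cells, Apoe in female LCs and male basal cells, Abca1 in male basal cells, Abcg1 in male proliferating cells and Fabp4 in female migratory cells, and without the second male RD mouse Abca1 in male basal cells (0.65, adjusted p = 0.0497). The Fabp4 call rests on the 1 cell of the second female RD mouse with 460 UMIs. No other female mouse held more than 3 Fabp4 UMIs in migratory cells. Of mean levels, 127 moved by less than 1 SD and 37 by more. LCs summed to 605435 to 2440043 UMIs per mouse, so that a gene at 10 CPM rests on few UMIs in the males.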

Other observations

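In cycling LCs of 5 mice against the other LCs of the same mouse, 7 of 46 tested genes of the lipid lists were called, against 6.95% of all genes. They were Spp1, a secreted phosphoprotein, which was higher (log2 fold change 1.83, edgeR adjusted p = 0.000119), and Cd63 (−1.72), Hilpda (−1.05), Tyrobp (−0.96), Acsl5 (−0.87), Lgals3 (−0.66) and Cxcl16 (−0.65), which were lower. In Ccr7+ LCs of 4 female mice 6 of 50 were called, against 4.73% of all genes. Lgals3 (0.57), Cxcl16 (0.42) and Cd63 (0.36) were higher and Ctsl (−2.20), Plbd1 (−1.40) and Dbi (−0.65) lower, each with an edgeR adjusted p under 0.05. Hilpda, a droplet protein that inhibits triglyceride breakdown, was at 312 to 836 CPM in LCs and 4.96 to 9.41 CPM in keratinocytes.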
